A study of Caenorhabditis elegans with 3 samples.

Results

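The 10 genes described here build the eggshell of Caenorhabditis elegans or start the development of the egg at fertilization. They were chosen by sequence name for these roles, not for their values, and are 10 of the 45836 gene entries in the deposited table. They are egg-1 (B0244.8), egg-2 (R01H2.3), egg-3 (F44F4.2), egg-4 (T21E3.1), egg-5 (R12E2.10), mbk-2 (F49E11.1), chs-1 (T25G3.2), cbd-1 (H02I12.1), cpg-1 (C07G2.1) and cpg-2 (B0280.5). All 10 were among the 11345 genes that passed a filter of at least 10 normalised reads in at least 4 of the 12 libraries.

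The study sequenced poly(A) RNA from dissected germlines of young adult hermaphrodites of the wild-type strain N2, fed bacteria that produce double-stranded RNA. All 3 groups were kept at 24 °C, with feeding begun in first-stage larvae and germlines taken from their progeny, so the animals measured had parents under the same RNAi. The control group received the empty plasmid L4440 in HT115 bacteria, the second group P granule RNAi, and the third csr-1 RNAi with a clone of the Ahringer library. P granule RNAi is known from the study to aim at glh-1 and glh-4 together with pgl-1 and pgl-3, which all encode proteins of the germ granules, while csr-1 encodes an Argonaute protein that binds small RNAs matching germline transcripts. Each group held 4 libraries, named orig, 1, 2 and 3, each a pool of 400 to 500 germlines cut from the animal at the bend of the gonad. The meaning of orig was not given, and how much of the row of growing oocytes each pool kept was not stated. RNAi lowers a transcript without removing it, and feeding acts on the whole animal.

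In the worm, the oocyte stores transcripts and proteins for its eggshell before fertilization and assembles the shell within minutes after sperm entry. A protein complex on the oocyte surface couples both events: pseudophosphatases hold a kinase and the chitin synthase at the cortex until the egg is activated, when the kinase is freed to mark oocyte proteins for destruction. The shell is laid down from the outside inwards, as a vitelline layer, a chitin layer and an inner layer of chondroitin proteoglycans.

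The libraries held 18369939 to 31948734 reads in genes. The 10 transcripts together took 1.26 to 1.51% of them in the control. Their share was 1.12 to 1.54% for P granule RNAi and 1.06 to 1.33% for csr-1 RNAi. Each gene had between 3426 and 123382 reads in a library, so counting error was small beside the spread between libraries. csr-1 itself averaged 23553 normalised reads in the control and 3836 after its own RNAi (log2 fold change −2.70, adjusted p = 3.56e-05 by limma). Under P granule RNAi pgl-1 (−3.25), pgl-3 (−2.65) and glh-4 (−2.22) fell, whereas glh-1 (−0.52, adjusted p = 0.299) did not pass limma's test. Of 10 germline marker genes, all of which were measured in every group, 4 passed limma's test under csr-1 RNAi, beside 14.8% of all genes. glh-1 (1.38) and him-3 (0.48) rose, and gld-1 (−0.76) and nos-3 (−0.76) fell. Under P granule RNAi pgl-1 was the marker that passed, beside 0.0617% of all genes. Of these markers, pgl-1 and glh-1 are themselves targets of that RNAi. In bulk RNA of this kind, fewer cells of a type and less RNA per cell cannot be told apart.

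Reads were counted without regard to strand. In the Ensembl annotation of WBcel235, egg-1, egg-2, cpg-1 and cpg-2 lie on chromosome III, egg-3 on chromosome II, egg-4, egg-5 and chs-1 on chromosome I, and mbk-2 and cbd-1 on chromosome IV. egg-4 and egg-5 each have 2259 coding bases in 5 coding exons. They are near-identical copies whose shared reads could not be assigned, so single values for the pair are uncertain, and egg-1 and egg-2, with 1653 and 1644 coding bases in 5 coding exons each, are also related in sequence. Exons of 4 of the genes overlap another gene. The partners of egg-1, egg-3 and mbk-2, on the opposite strand, held no more than 181 reads in any library. The partner of chs-1, T25G3.3 on the same strand, held 5089 to 7645 normalised reads, and its own difference between csr-1 RNAi and the control was small (log2 fold change 0.22, adjusted p = 0.359 by limma).

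Among the genes described here, cpg-2, cpg-1 and cbd-1, which encode proteins of the shell layers, were the most abundant in the control. The chitin synthase gene chs-1, also a gene of the shell, stood below egg-1 and egg-2. Levels were compared between genes as normalised reads per kilobase of coding length, averaged over the 4 control libraries. cpg-2, a chondroitin proteoglycan of the inner eggshell layer, stood highest at 56965 ± 9583 reads per kilobase (SD, n = 4), at rank 97 of 19454 genes. cpg-1, its relative in the same layer, followed at 36428 ± 3447, and cbd-1, a chitin-binding protein of the outer vitelline layer, at 24975 ± 3689. These 3 levels did not overlap in any control library, nor did that of egg-1 below them, at 15378 ± 1110 reads per kilobase. egg-1 and egg-2 encode membrane proteins with LDL receptor repeats on the oocyte surface, both needed for sperm to enter.

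The lower levels lay closer together. egg-2 had 6211 ± 556 reads per kilobase and chs-1, the chitin synthase of the eggshell, 5007 ± 754. egg-3, a pseudophosphatase that gathers the activation complex at the cortex, had 4461 ± 330, and mbk-2, the DYRK kinase freed at egg activation, 4332 ± 949. From egg-2 down to mbk-2 the ranges of each neighbouring pair overlapped, and egg-3 was above mbk-2 in 2 of 4 libraries. egg-5 (2274 ± 384) and egg-4 (1861 ± 371), the pseudophosphatases that hold the kinase in check, came last, below mbk-2 in every control library by this measure. Reads shared by these near-identical copies were not assigned, so division by the full coding length can understate both levels and their ranks. mbk-2 has 14 annotated transcripts and 4843 exon bases beside 2451 coding bases. Per kilobase of exon its control level was 2192 ± 480, close to that of egg-5 (2173 ± 367). Per kilobase of coding length the ranges of egg-5 and egg-4 overlapped, although egg-5 was above egg-4 in 4 of 4 libraries. The levels of the 10 genes thus ran from rank 97 to rank 2508 of all genes in the control.

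**Figure D1:**
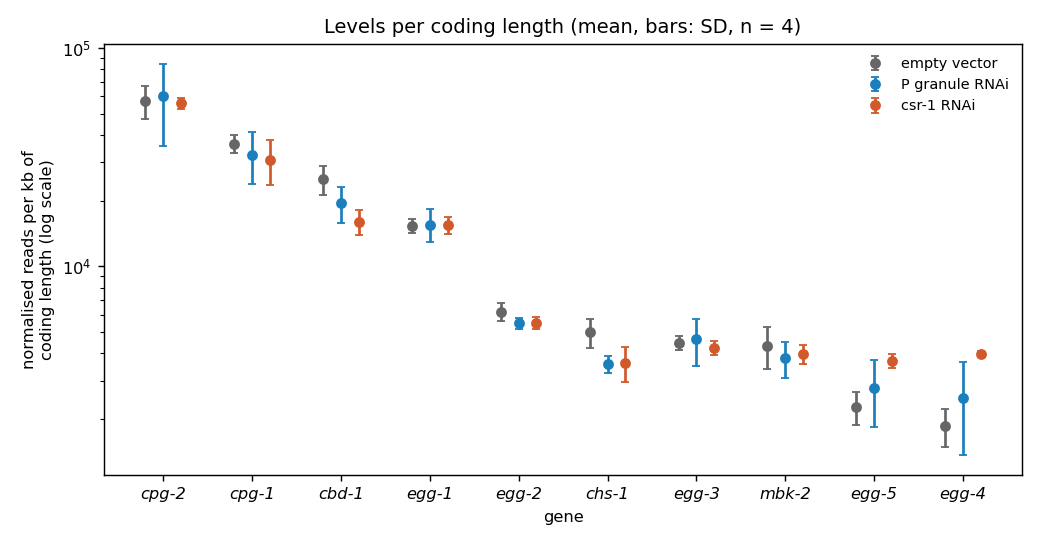
Level of each gene as normalised reads per kilobase of coding length, on a log axis, with points for the mean and bars for the SD of 4 libraries in each of the 3 groups. The genes run in the order of the control, from cpg-2 at 56965 to egg-4 at 1861, and the csr-1 RNAi points of egg-4 (3967) and egg-5 (3700) lie near that of mbk-2 (3967). Per kilobase of exon, which is not plotted, these levels were 3794, 3536 and 2008. Levels of egg-4 and egg-5 can be understated, as their shared reads were not assigned.

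Under csr-1 RNAi, 3 of the 10 transcripts differed from the control by limma's test across all genes with Benjamini-Hochberg adjustment at 0.05. Transcripts of the pseudophosphatases egg-4 and egg-5 rose, to 2.13 and 1.63 times their control means, and that of the vitelline layer protein cbd-1 fell, to 0.639 of its control mean. The other 7 did not pass the test. Of all 11345 genes tested, 14.8% passed, 6.98% higher and 7.8% lower. The 1 lower of 10 lay near the share of all genes. The 2 higher of 10 are the near-identical copies egg-4 and egg-5, which are not independent, so they were not read as an excess. The groups did not overlap for 2 genes in the higher direction, again egg-4 and egg-5, and 2 in the lower. Of all genes, 9.97% and 11.7% did so. The median log2 fold change of the 10 genes was −0.09, beside 0.02 over all genes.

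egg-4 had 3388, 4300, 5331 and 3798 normalised reads in control libraries orig, 1, 2 and 3. Under csr-1 RNAi it had 9214, 9101, 8932 and 8602 reads in the libraries of the same names. Every csr-1 RNAi library lay above every control library, and the csr-1 RNAi libraries were closer to each other, at 8962 ± 267 reads, than the controls, at 4204 ± 838 (SD, n = 4 each). The log2 fold change was 1.11 (SE 0.23, 95% interval 0.60 to 1.62, adjusted p = 0.00818 by limma).

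For egg-5, which acts redundantly with egg-4, the control libraries had 4209, 5581, 6114 and 4643 reads. The csr-1 RNAi libraries had 7478, 8625, 8591 and 8741 reads, again all above the controls, with library orig the lowest of them. The means were 5137 ± 868 and 8359 ± 591 reads, and the log2 fold change was 0.72 (SE 0.20, 95% interval 0.29 to 1.14, adjusted p = 0.0292 by limma). This call was lost without control library orig, 1 or 3 or without csr-1 RNAi library 1 or 2 (adjusted p between 0.0535 and 0.0834), and without the 3 orig libraries together (0.0600).

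The partners of the pseudophosphatases in the activation complex showed smaller differences. egg-3 averaged 7428 ± 550 control reads and 7050 ± 500 reads after csr-1 RNAi (log2 fold change −0.08, adjusted p = 0.776 by limma). mbk-2 ranged from 7541 to 12777 reads over the control libraries and from 8275 to 10276 over the csr-1 RNAi libraries, with the control range containing the other (−0.10, adjusted p = 0.738 by limma). For both genes the 95% interval spanned 0, from −0.39 to 0.24 for egg-3 and from −0.49 to 0.28 for mbk-2. How egg-4 and mbk-2 stood to each other under csr-1 RNAi depended on the length used. Their levels were 3967 ± 118 and 3967 ± 396 reads per kilobase of coding length, and 3794 ± 112.98 and 2008 ± 200 per kilobase of exon. The egg-4 level can be understated by either length, because reads shared with egg-5 were not assigned.

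The sperm receptors of the oocyte surface gave no call. egg-1 averaged 25420 ± 1835 control reads and 25493 ± 2181.6 reads after csr-1 RNAi (adjusted p = 0.992 by limma), and its 95% interval ran from −0.28 to 0.28 on the log2 scale. egg-2 averaged 10211 ± 914 and 9078 ± 605 reads (−0.17, 95% interval −0.39 to 0.05, adjusted p = 0.300 by limma), with overlapping groups.

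Among the genes of the shell, cbd-1 fell. Its control libraries held 85468, 97236, 119466 and 93130 reads, in the order orig, 1, 2, 3. Its csr-1 RNAi libraries held 69495, 66974, 65296 and 51027 reads, all below the lowest control, with library 3 the lowest. The means were 98825 ± 14599 and 63198 ± 8295 reads, and the log2 fold change was −0.64 (SE 0.16, 95% interval −0.996 to −0.292, adjusted p = 0.0198 by limma). Without control library 1 or control library 2 this call was lost (adjusted p = 0.0506 and 0.0689).

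chs-1, which makes the chitin layer, had 16285, 19074, 23440 and 20639 reads in the control libraries. After csr-1 RNAi it had 15905, 15373, 15671 and 10442. The groups did not overlap, although control library orig lay close to the highest csr-1 RNAi library, and csr-1 RNAi library 3 stood well below the other three. The means were 19860 ± 2990 and 14348 ± 2613 reads (log2 fold change −0.48, SE 0.16, 95% interval −0.82 to −0.13). The test did not pass (adjusted p = 0.0637 by limma, range 0.0425 to 0.188 over 21 alternative settings), and it passed by DESeq2 (0.0425) and without the orig library of the control (0.0494), of csr-1 RNAi (0.0481) or of all 3 groups (0.0433).

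The inner-layer proteoglycans did not pass either. cpg-1 had 63442, 61676, 72210 and 57962 reads in the control libraries. After csr-1 RNAi it had 68092, 60404, 45969 and 41007, where libraries 2 and 3 lay below every control and libraries orig and 1 within the control range (−0.27, adjusted p = 0.396 by limma). cpg-2 averaged 89549 ± 15064 and 87736 ± 4872 reads, with the csr-1 RNAi range of 82717 to 93591 inside that of the control (−0.02, 95% interval −0.49 to 0.46, adjusted p = 0.975 by limma).

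edgeR on the recovered reads called the same number of the 10 genes, 3, with 14.0% of all genes called, and DESeq2 called 4, with 21.6% of all genes called. In the authors' deposited table for csr-1 RNAi, none of the 10 genes had an adjusted p below 0.05, and the lowest belonged to egg-4, with a fold change of 2.13 and an adjusted p of 0.283. The authors' deposited table gave egg-5 a fold change of 1.63 (adjusted p 0.781) and cbd-1 one of 0.639 (adjusted p 0.900).

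**Figure D2:**
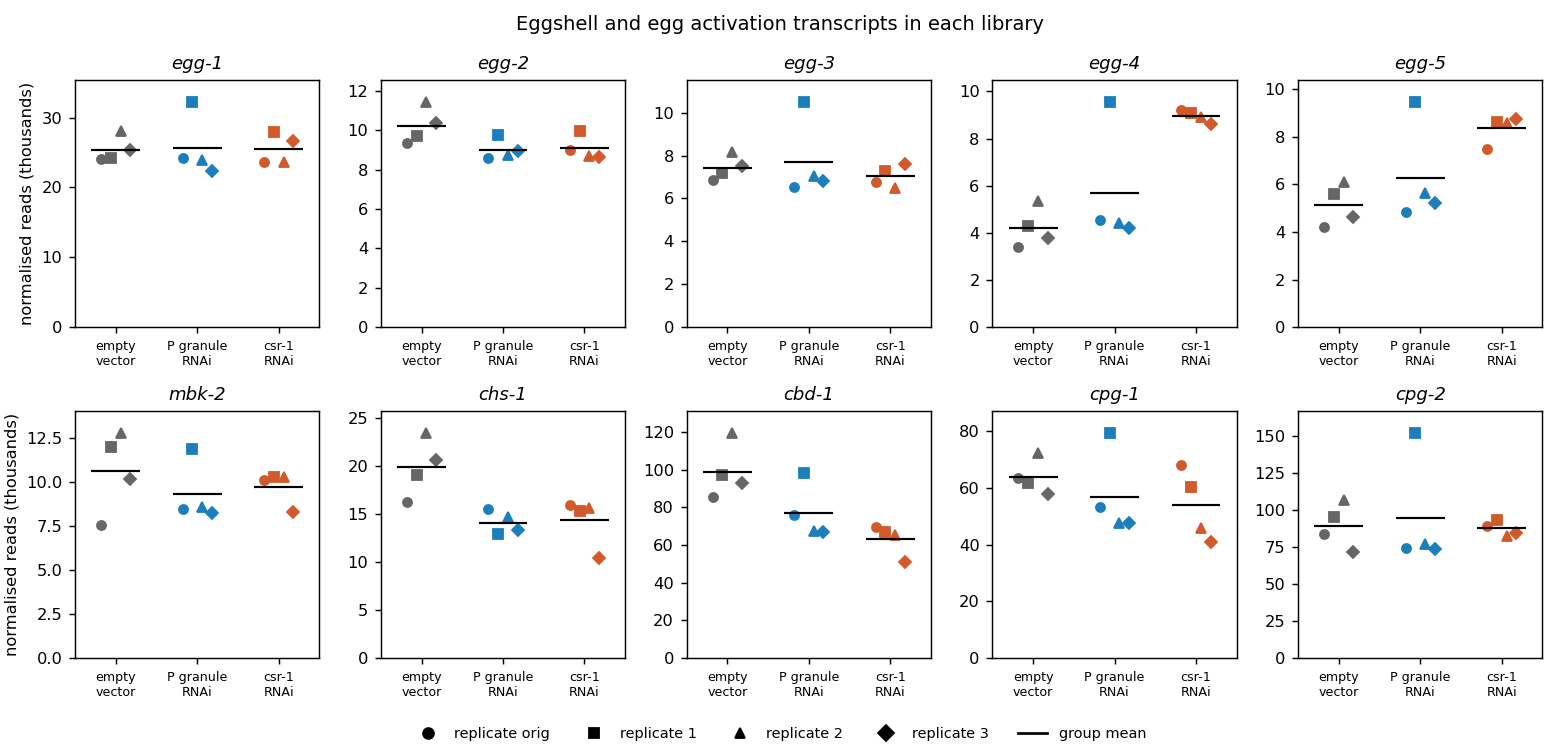
Normalised reads of each of the 10 genes in every library, with a panel per gene, the 3 groups on the x axis, a marker shape per library name and a line for the group mean. The csr-1 RNAi libraries lie above all controls for egg-4 and egg-5 and below them for chs-1 and cbd-1, and P granule RNAi library 1 (square) is the highest of its group in 9 genes.

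Sperm transcripts varied between the csr-1 RNAi libraries, and some of the shell genes differed between the same libraries. The summed level of 30 sperm marker genes was 952, 3863, 20234 and 46876 normalised reads in csr-1 RNAi libraries orig, 1, 2 and 3, while the controls held 1467 to 5470. Ranked by that sum, each csr-1 RNAi library had fewer cbd-1 and cpg-1 reads than the one below it in sperm level, as given above, and chs-1 was lowest in the library with the most sperm reads. cpg-2, at 89704, 93591, 82717 and 84930 reads in libraries orig, 1, 2 and 3, did not follow this order. egg-4 differed little between these libraries, at 8602 to 9214 reads. Library orig, with fewer sperm reads than any control, had 69495 cbd-1 reads, below the lowest control. The mean log2 level of 15 oocyte transcripts lay between 13.86 and 14.00 in the csr-1 RNAi libraries and between 13.75 and 14.03 in the controls. The summed level of 10 gonadal sheath and spermatheca markers was 7955 to 25733 reads under csr-1 RNAi and 14904 to 24872 in the control. On average fln-1 held most of this sum. None of the 30 sperm markers passed the test against the control by limma (median log2 fold change 1.54). Of 8 intestine, 8 cuticle and hypodermis and 7 body wall muscle markers tested, the hypodermal gene dpy-10 passed, from 134 ± 12.03 to 44.8 ± 11.6 reads (adjusted p = 0.00586). What part the sperm or somatic content of the libraries had in the values of the shell genes was not tested.

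P granule RNAi gave no call among the 10 genes, and 0.0617% of all genes passed limma's test in this comparison, 7 of 11345. The largest difference was in chs-1, which had 15571, 12886, 14708 and 13301 reads under P granule RNAi against 16285 to 23440 in the control. It was below the lowest control in every P granule RNAi library (means 14117 ± 1244 and 19860 ± 2990 reads, log2 fold change −0.48, SE 0.16, 95% interval −0.83 to −0.14). The adjusted p was 0.303 by limma and the unadjusted p 0.00980. It was the only one of the 10 genes whose groups did not overlap, in a comparison where 5.13% of all genes lay wholly above and 7.06% wholly below the control.

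cbd-1 had 75808, 98121, 67697 and 66981 reads under P granule RNAi. Libraries orig, 2 and 3 were below every control and library 1 was inside the control range (log2 fold change −0.36, 95% interval −0.72 to −0.01, unadjusted p 0.0437, adjusted p = 0.357 by limma). The summed sperm markers were 5467 to 26259 reads in the P granule RNAi libraries, beside 1467 to 5470 in the control. The summed sheath and spermatheca markers were below every control, at 10376 to 12576 reads beside 14904 to 24872, and none of the 10 passed limma's test. Most of that sum came from 1 gene, fln-1, with means of 9538 reads under P granule RNAi and 18368 in the control. The mean log2 level of the 10 markers overlapped, at 5.28 to 7.04 beside 5.69 to 6.46 in the control. Their median log2 fold change was 0.12. The 8 intestine markers tested had a median log2 fold change of −1.10, and none passed by limma. The part of these markers in the values of chs-1 and cbd-1 was not tested. These 2 genes were the only ones of the 10 with an unadjusted p under 0.05, beside 13.8% of all genes. edgeR and DESeq2 also called 0 of the 10, with 0.0617% and 0.705% of all genes called. The authors' deposited table for P granule RNAi likewise gave none of the 10 an adjusted p below 0.05.

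egg-4 and egg-5 turned on a single P granule RNAi library. egg-4 had 4534, 9541, 4402 and 4219 reads in libraries orig, 1, 2 and 3, so library 1 was above every control and the other three were inside the control range. egg-5 had 4844, 9458, 5633 and 5206 reads, with the same arrangement. Their log2 fold changes were 0.36 (SE 0.23, adjusted p = 0.436) and 0.25 (SE 0.20, adjusted p = 0.503) by limma. Without library 1 the means of egg-4 (4385 ± 158 reads, n = 3) and egg-5 (5228 ± 395) were 1.04 and 1.02 times those of the control.

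The remaining 6 genes had adjusted p-values between 0.398 and 0.992 by limma under P granule RNAi. egg-2 averaged 9014 ± 527 reads (log2 fold change −0.18), mbk-2 9292 ± 1722 (−0.18) and cpg-1 56910 ± 15172 (−0.19). egg-1 (25682 ± 4415 reads), egg-3 (7716 ± 1860) and cpg-2 (94516 ± 38533) had log2 fold changes of at most 0.03, with SDs wider than in the control. The median log2 fold change of the 10 genes was −0.09, beside 0.03 over all genes.

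Set directly against P granule RNAi, csr-1 RNAi gave no call among the 10 genes, while 9.52% of all genes passed limma's test. edgeR and DESeq2 also called 0 of the 10, with 9.11% and 13.4% of all genes called. No gene of the 10 had groups that did not overlap, beside 7.4% of all genes in the higher and 7.9% in the lower direction. egg-4 (log2 fold change 0.75, SE 0.23, unadjusted p 0.00737, adjusted p = 0.0662 by limma) and egg-5 (0.46, SE 0.20, unadjusted p 0.0359, adjusted p = 0.177) had unadjusted p-values under 0.05. Without P granule RNAi library 1 both passed, at 1.03 (adjusted p = 0.00152) and 0.68 (adjusted p = 0.0116). cbd-1 differed by −0.28 (95% interval −0.63 to 0.07) and chs-1 by less than its error (95% interval −0.34 to 0.35).

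**Figure D3:**
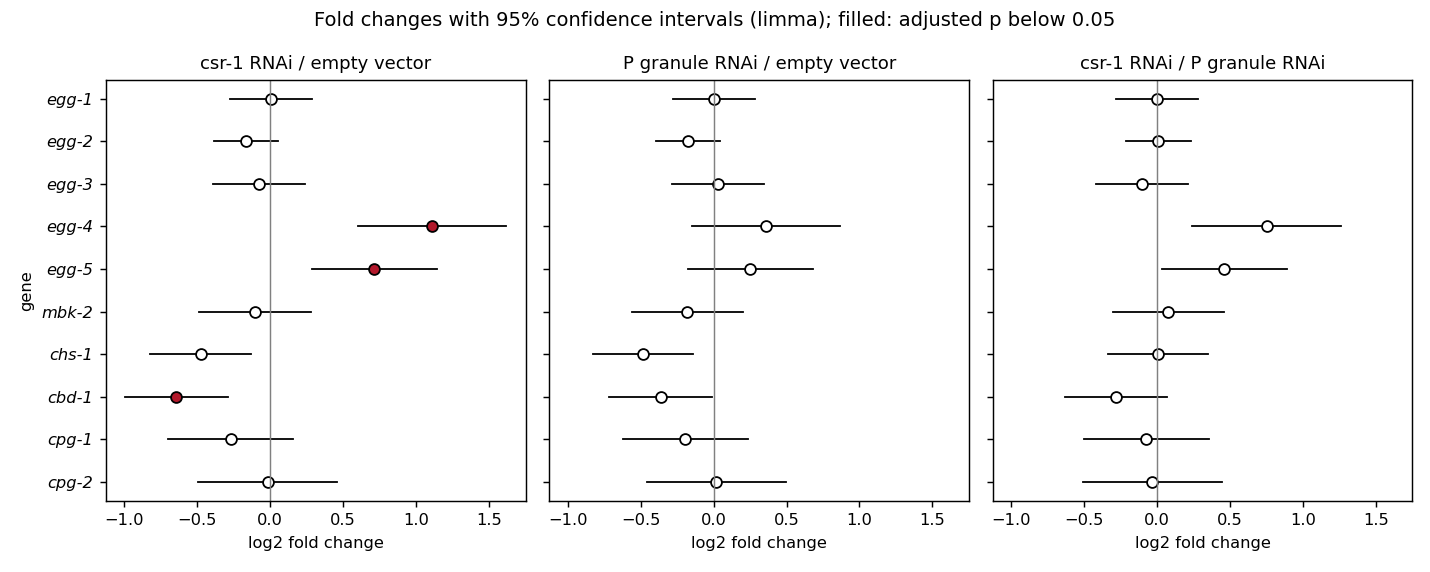
Log2 fold change of each gene in the 3 comparisons, with 95% intervals from limma; filled points mark an adjusted p below 0.05. Only egg-4 (1.11), egg-5 (0.72) and cbd-1 (−0.64) under csr-1 RNAi against the empty vector are filled.

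P granule RNAi library 1 stood apart for most of these transcripts. It held the highest value of its group in 9 of the 10 genes, whereas 32.0% of all tested genes were highest there. The exception was chs-1, which was lowest there with 12886 reads. cpg-2 had 152268 reads in that library and 74106 to 77479 in the other three, and egg-3 had 10487 against 6513 to 7034. On the log2 scale the deviations of library 1 from its group mean ran from −0.13 for chs-1 to 0.84 for egg-4, with a median of 0.42. The 15 oocyte transcripts were also highest in library 1, at a mean log2 level of 14.27 against 13.67 to 13.92 in the other libraries of the group. The summed sperm markers were lowest there, at 5467 reads against 10783 to 26259. The part of either in the result was not tested.

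The same kind of shared shift, smaller in size, was seen in the control. Control library 2 held the highest of the 4 control values in 10 of 10 genes, beside 26.8% of all tested genes, and library orig the lowest in 8, beside 27.4%. The oocyte transcripts were highest in control library 2 as well (14.03 against 13.75 to 13.91), and the summed sperm markers were lowest there (1467 reads against 1681 to 5470). Under csr-1 RNAi, library 3 was lowest in 6 of the 10 genes, beside 36.5% of all genes. Without P granule RNAi library 1, the mean of 3 libraries was 0.710 of the control for cbd-1, 0.731 for chs-1, 0.775 for cpg-1 and 0.794 for mbk-2. For the other genes it was 0.840 to 1.04. Library 1 was the highest for most of the genes, so leaving it out had to lower their means. Limma called 0 of the 10 against the control in this setting.

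**Figure D4:**
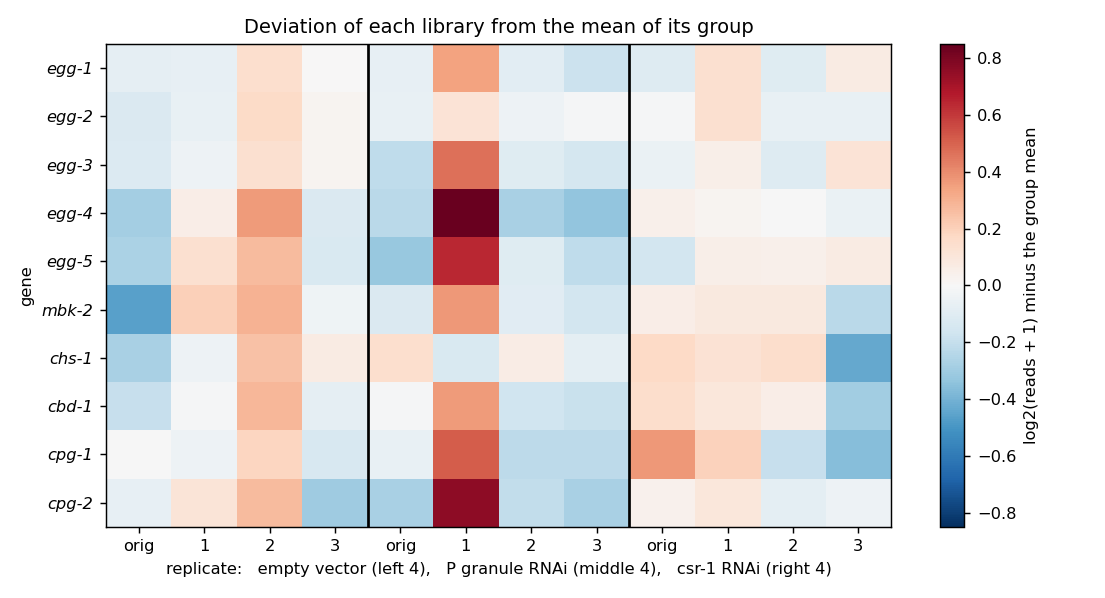
Deviation of each library from the mean of its group on the log2(reads + 1) scale, by gene (rows) and library (columns, 4 per group), from blue (below) to red (above). P granule RNAi library 1 is red for 9 genes and blue for chs-1 (−0.13), and control library 2 is red for all 10.

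With group means removed, the 10 transcripts varied together over the 12 libraries, apart from chs-1. The correlation was positive in all 36 pairs of genes without chs-1 (0.52 to 0.95, median 0.74) and in 5 of the 9 pairs with chs-1 (−0.21 to 0.57, median 0.09). The highest values were 0.95 for egg-4 with cpg-2, 0.94 for egg-4 with egg-5 and 0.93 for egg-1 with egg-3. These values describe 12 libraries whose points share depth and scaling, and in which P granule RNAi library 1 is a common extreme. The same correlations were not computed between other genes, so they do not show a trait particular to these 10.

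Ratios within a library do not depend on how libraries were scaled to each other. For the pair egg-4 and egg-5, the ratio of reads was 0.805, 0.770, 0.872 and 0.818 in control libraries orig, 1, 2 and 3. It was 1.23, 1.06, 1.04 and 0.984 in those of csr-1 RNAi, and 0.936, 1.01, 0.781 and 0.810 in those of P granule RNAi. egg-4 thus had fewer assigned reads than egg-5 in every control and more in 3 of 4 csr-1 RNAi libraries. Reads shared by the copies were not assigned, so a ratio above or below 1 does not show which transcript was more abundant. The mean log2 ratio differed by 0.40 between csr-1 RNAi and the control, with no overlap of the groups. The two-sided exact permutation test gave p = 0.0286, the smallest that 70 arrangements allow, and 0.129 after adjustment over 9 tests, which did not pass.

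The ratio of egg-1 to egg-2, the paired sperm receptors, was 2.58, 2.49, 2.45 and 2.45 in the control libraries. It was 2.62, 2.81, 2.73 and 3.08 under csr-1 RNAi, all above the controls, although library orig was only just so. It was 2.82, 3.29, 2.73 and 2.51 under P granule RNAi, where library 3 overlapped the controls. The mean log2 ratio was 0.17 higher under csr-1 RNAi (exact permutation p = 0.0286, adjusted 0.129) and 0.18 higher under P granule RNAi (exact permutation p = 0.0571, adjusted 0.129), and neither passed after adjustment. Both comparisons share the control libraries. For cpg-1 and cpg-2 the mean log2 ratio was −0.48 ± 0.15 in control libraries, −0.69 ± 0.19 in P granule RNAi libraries and −0.73 ± 0.28 in csr-1 RNAi libraries (SD, n = 4). These groups overlapped, with exact permutation p-values from 0.143 to 0.800.

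**Figure D5:**
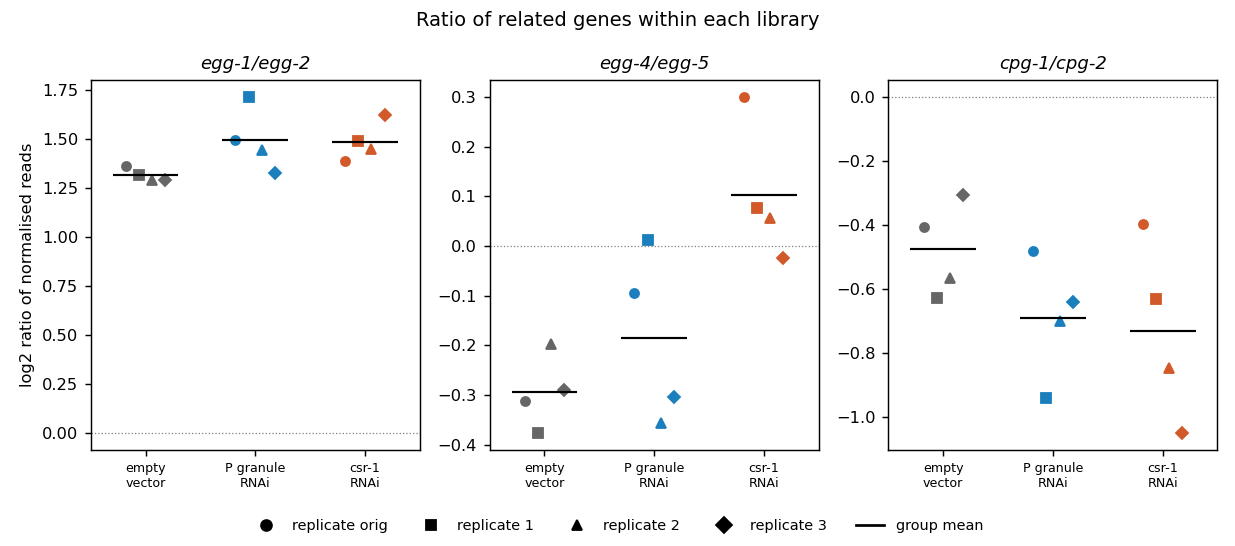
Log2 ratio of normalised reads within each library for the pairs egg-1/egg-2, egg-4/egg-5 and cpg-1/cpg-2, with a line for each group mean and a dotted line at equal reads. For egg-4/egg-5 the csr-1 RNAi libraries lie above every control, with means of 0.10 and −0.29.

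Each of the 10 genes was compared with all other tested genes for the likeness of its log2 level over the 12 libraries, as Pearson's r. Outside the 10, the gene most like egg-4 was memi-2 (r = 0.97), a maternal gene of meiosis in the egg, and the gene most like egg-5 was spd-1 (r = 0.98), which encodes a microtubule-bundling protein of the spindle midzone. Within the 10, egg-5 ranked second in the list for egg-4, at r = 0.97. The closest of the 10 ranked 3 for egg-5 and 5 for egg-1. For each other gene of the 10 it ranked lower, from 28 (egg-3) to 693 (chs-1), behind genes outside the 10. The closest genes were dut-1 for egg-1 (r = 0.93), spas-1 for egg-2 (0.89), spop-1 for egg-3 (0.96) and M70.5 for mbk-2 (0.93). For the shell genes they were hum-1 for chs-1 (0.97), chl-1 for cbd-1 (0.97), fipp-1 for cpg-1 (0.96) and lin-40 for cpg-2 (0.96). These values are maxima over 11344 genes compared and include the differences between groups.

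Other genes of the same processes mostly gave no call under csr-1 RNAi. Of 29 tested genes of the eggshell and its permeability barrier, 2 rose and 1 fell, with a median log2 fold change of −0.04, beside 14.8% of all genes called and a median of 0.02. gna-1, which encodes a glucosamine-phosphate acetyltransferase in the route to the chitin precursor, rose from 32.1 ± 6.78 to 101 ± 25.6 reads (1.62, SE 0.32, adjusted p = 0.00562 by limma). gna-2, on the same list, was far more abundant and did not pass (−0.17, adjusted p = 0.385 by limma). It averaged 6377 ± 724 control reads and 5676 ± 851 reads under csr-1 RNAi. perm-1, named for permeable eggshells, rose from 5408 ± 131 to 7376 ± 426 reads (0.45, SE 0.09, adjusted p = 0.00722). sqv-6, the xylosyltransferase that starts glycosaminoglycan chains such as those of the proteoglycans, fell from 2011 ± 259 to 1153 ± 130 reads (−0.80, SE 0.13, adjusted p = 0.00226).

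Of 29 tested genes listed for oocyte maturation and egg activation, 3 rose and 1 fell (median 0.08), beside 14.8% of all genes called. cdk-1, the kinase that drives entry into M phase, rose from 8675 ± 696 to 21889 ± 5268 reads (1.31, SE 0.17, adjusted p = 0.000664 by limma). egg-6, known from worms as an extracellular leucine-rich repeat protein of epithelial tubes rather than for egg activation, rose from 16968 ± 2513 to 28659 ± 4285 reads (0.76, SE 0.18, adjusted p = 0.0155). Its call was lost without the 3 orig libraries (adjusted p = 0.0705). zif-1, an adaptor for the destruction of zinc finger proteins in the embryo, also passed (0.46, adjusted p = 0.0410), as did gsk-3, a kinase that acts after mbk-2 on OMA-1 in the embryo, which fell (−0.49, adjusted p = 0.0290). The zif-1 call was lost in 13 of 21 alternative settings and that of gsk-3 in 5.

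Of 15 oocyte transcripts, 1 passed, lin-41, a regulator of oocyte growth (−0.55, adjusted p = 0.0455 by limma), and its call was lost in 14 of 21 settings (adjusted p up to 0.135). Of 7 tested genes of the sperm side of fertilization, none passed by limma (median 1.08), at mean levels of at most 268 reads in the control. Under P granule RNAi none of the genes in these 4 lists passed, with medians of −0.04, −0.12, 0.02 and 0.35 in the order given. Between csr-1 RNAi and P granule RNAi, where 9.52% of all genes passed, 3 eggshell genes were higher (perm-1, cyk-3 and ptr-2) and 1 was lower (sqv-6). In the same comparison 5 genes listed for maturation and activation were higher (cdk-1, egg-6, mel-26, zif-1 and emb-27), and no gene of the other 2 lists passed by limma. Of these 5, egg-6 is known for other roles, as given above. These genes were named after their values were seen. Of the 30 eggshell genes matched, cpg-7 was at 0 in all 12 libraries.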

How the data were processed

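RNA of 12 germline libraries in 3 groups was analysed. Values in the deposited table are a normalised signal, which the authors made by dividing read counts by a size factor per library, as the values show. All 187378 values above 0 (100%) were whole multiples of 1 read within 0.01 reads, so reads were recovered. Per the submitters' processing notes, the tools were DESeq 1.1.2.1, HTSeq 0.5.4p3, SAMtools 0.1.18, TopHat2 2.0.8b and CASAVA, in roles not stated. Their genome build was not given in the sources used here. Besides, the authors' deposited tables of comparisons give a fold change (a ratio of means) and a p-value adjusted by the authors. Per the labels' protocols, libraries came from a TruSeq RNAv2 kit, read as single 100 bp reads. Entries that name no gene, 5 in the deposited table, stayed out of gene totals and tests. Reads aligned to several places equalled 2.04 to 2.76% of all counted reads, these entries included, and ambiguous reads 0.783 to 0.917%.

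The main test was limma 3.58.1 (trend, robust, R 4.3.3) on log2(normalised reads + 1), with a mean per group over all 12 libraries. The filter kept values of at least 10 in at least 4 libraries, and p-values were adjusted over 11345 genes. Fold changes on the log2(value + 1) scale understate those of low genes. Alternatives were edgeR 4.0.16 with TMM or RLE factors, DESeq2 1.42.0, no filter, a pseudocount of 10, only the 2 groups compared, each library left out, the orig libraries left out, the replicate name as a block and, chosen after seeing the data, limma on reads scaled by TMM. Ratios of related genes were compared by two-sided exact permutation tests over 4 against 4 libraries. The scripts were tested on simulated data.

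The labels name 3 samples, 1 per group; the column names give the group and a replicate name, and the series describes 4 biological replicates per condition, with no word on separate cultures. Coding lengths, chromosomes and overlaps came from the Ensembl annotation of WBcel235, matched on 98.99% of entries, in place of RefSeq protein lengths, which were not used here; the longest coding sequence of each gene was taken. The genes and lists were chosen with earlier results of these data known. Named genes are the 10, the genes of the lists that passed in a comparison with the control, the most alike gene of each of the 10, the RNAi targets and genes that overlap the 10. The marker fln-1 was named for its share of a summed level, and gna-2 for its level beside gna-1.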

Additional observations from a re-analysis of the deposited data

Results flagged for a closer look

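In 8 of 39 sets of 4 values checked (each of the 10 genes and each of the 3 ratios in each group), 1 library lay so far from the rest that its gap to the nearest, as a share of the whole range, was at or above the 95% critical value of 0.829 for 4 values. Chance gives about 5% of independent sets. These sets were not independent, because the genes varied together and the ratios use the same genes, so the count was not read as an excess. Of these 8, 5 were P granule RNAi library 1 as the highest of its group, with shares of 0.869 for egg-3, 0.941 for egg-4, 0.829 for egg-5, 0.906 for mbk-2 and 0.957 for cpg-2. In csr-1 RNAi, library 3 was the lowest for mbk-2 (0.907) and chs-1 (0.903), and library orig was the lowest for egg-5 (0.881).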

How the results depend on the processing

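Every member value was recomputed under 21 alternatives. Direction was compared only for values called in either fit. Some alternatives, such as leaving out a library of the group not compared, change the error but not the fold change, so they are a weaker check. Of 630 recomputed fold changes, 616 stayed on the same side of the threshold, 8 lost a call, 6 gained one and none reversed; 40 values called under neither setting changed sign. egg-4 against the control was called in 21 of 21 alternatives (log2 fold change 1.002 to 1.233), egg-5 in 15 (0.62 to 0.80), cbd-1 in 19 (−0.76 to −0.54) and chs-1 in 4 (−0.62 to −0.33). With a library left out, the number of the 10 genes called ranged from 1 (without control library 1) to 4 for csr-1 RNAi against the control, and from 0 to 2 (without P granule RNAi library 1) against P granule RNAi. Fewer samples enter these fits; the cause was not tested further. Over all genes, DESeq2 called 80 in P granule RNAi against the control, where limma called 7. By exon length the order of mean levels per kilobase was the same in the control, with mbk-2 at 2192 in place of 4332, but mbk-2 came last under P granule RNAi (1919) and csr-1 RNAi (2008). Libraries of the same replicate name did not consistently deviate together, so the names were not taken as pairs. Their correlations ran from −0.47 to 0.66, the highest for P granule RNAi with csr-1 RNAi library 2. Between different names they ran from −0.69 to 0.61. With the replicate name as a block, 3 of the 10 genes were called in csr-1 RNAi against control. In P granule RNAi against control and csr-1 RNAi against P granule RNAi, 0 and 0 were called. These counts were the same without the block. For genes that did not pass, the 95% intervals give the sizes of difference that 4 libraries a group leave possible.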
